A study of Mus musculus with 6 samples.

Results

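The genes described here build and use the calcium store of the endoplasmic reticulum (ER). They are 10 genes of 4 families, taken by symbol from the deposited count table of 16775 genes: the store sensors Stim1 and Stim2, the plasma membrane channels Orai1, Orai2 and Orai3, the release channels Itpr1, Itpr2 and Itpr3, and the ER calcium pumps Atp2a2 and Atp2a3. They were measured by RNA-seq in mouse osteoclasts, the multinucleated cells that resorb bone, grown from bone marrow macrophages of wild-type animals. Both groups received 30 ng/ml M-CSF and 50 ng/ml RANKL in medium with 10% serum, and differed by verapamil, a drug that blocks L-type calcium channels of the plasma membrane. The titles of the samples give day 5, while the protocol describes medium changes up to day 7, and neither the dose nor the timing of the drug is stated. Of 6 labelled libraries, 5 were compared: control replicates 1 and 3 and verapamil replicates 1, 2 and 3. Control replicate 2 was not analysed here.

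The ER holds calcium at a far higher concentration than the cytosol. Pumps of the SERCA family (Atp2a genes) fill the store, and receptors for inositol trisphosphate (IP3; Itpr genes) release it when surface receptors activate phospholipase C. When the store empties, STIM proteins in the ER membrane sense the loss and open ORAI channels in the plasma membrane, a route called store-operated entry. In osteoclast precursors, RANKL with costimulation through phospholipase C gamma sets off calcium oscillations that activate the transcription factor NFATc1.

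The libraries held 20202340 to 21494523 estimated reads. Scatter within pairs of libraries was expressed as variance relative to counting noise. Control replicates 1 and 3 reached 29.3, whereas verapamil pairs had 2.06 to 3.84. Control replicate 3 paired with verapamil libraries gave 22.2 to 25.7. Pearson correlation of log2 levels placed control replicate 3 nearer to control replicate 1 (0.9718 against 0.9615 to 0.9627). The edgeR fit below does not model unequal spread by group, and its effect was not tested. Control replicate 1 stood apart from the others by gene length. With the tested genes in 5 groups of equal size by exon length, its log2 level was 0.37 above that of control replicate 3 in the median of the shortest group (median 1.83 kb), and the difference was -0.46 in the longest (median 10.05 kb). Of the 10 store genes, 8 have more than 5 kb of exons, so this difference bears on them, and values without each control are given below wherever they turn a direction or a call. All 11 osteoclast markers examined, among them Acp5, Ctsk and Calcr, were detected in every library. Whether a replicate is a further animal, a further culture or a repeat library is not stated, and the p-values cover no more than the spread among these libraries, which may be technical.

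With verapamil, the pump gene Atp2a3 rose 3.08-fold and the release channel gene Itpr3 fell to 0.507 of its control level. The other 8 genes did not pass the test. All 10 members passed the filter on low counts, and in edgeR's quasi-likelihood test 2 of the 10 (20%) had a Benjamini-Hochberg adjusted p under 0.05. Over all 12619 genes tested, 25.4% passed in either direction, 9.99% higher and 15.4% lower, so the share of store genes called was near the background. The 2 groups did not overlap for 5 of the 10 genes (50%), against 56.7% of all genes. The median log2 fold change of the 10 genes was -0.06, and that of all tested genes was -0.01. Values per library are CPM (reads scaled to library size with TMM factors), and a positive log2 fold change means a higher level with verapamil.

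**Figure D1:**
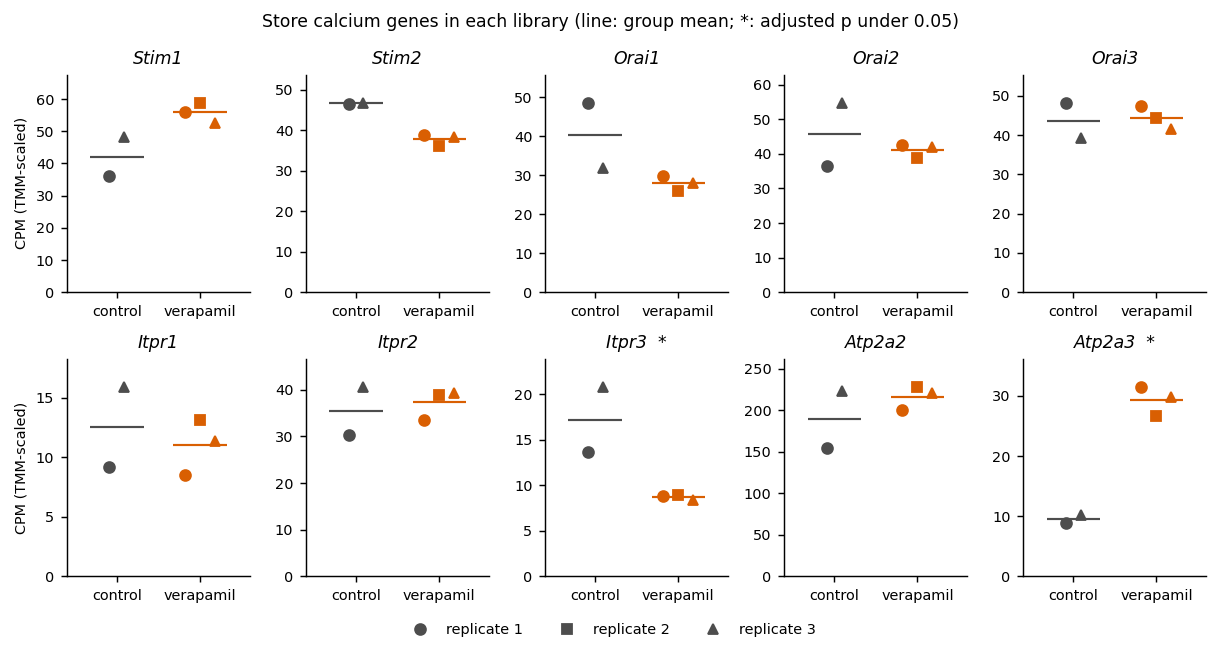
Level of each of the 10 genes in every library (vertical axes, TMM-scaled CPM from 0; marker shape gives the replicate, the line the group mean, and an asterisk an adjusted p under 0.05). The 3 verapamil libraries lie at 26.7 to 31.5 CPM for Atp2a3, above both controls, and at 8.43 to 8.94 CPM for Itpr3, below both.

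Among the pumps, Atp2a3 encodes SERCA3, an isoform known from blood cells and some secretory epithelia that binds calcium with lower affinity than SERCA2. The gene (Entrez 53313) lies on chromosome 11 of GRCm38 at 72961169 to 72993043. Its level was 8.85 CPM in control replicate 1 and 10.2 CPM in control replicate 3, and 31.5, 26.7 and 29.8 CPM in verapamil replicates 1, 2 and 3. Every verapamil library was therefore above both controls, and the controls differed little from each other. The means were 9.51 ± 0.924 CPM (SD, n = 2) and 29.3 ± 2.42 CPM (SD, n = 3), resting on 435 and 1761 reads. The log2 fold change was 1.62 (SE 0.135, edgeR adjusted p = 0.000899). It was called in all 15 alternatives tried, including the leaving out of each library, with estimates from 1.51 to 1.73. The share of all genes called was 25.7% with upper quartile scaling, 25.9% with DESeq2's size factors, 27.9% in DESeq2's Wald test, 25.1% with limma-trend, 25.2% with limma-voom, 18% without a filter and 24.5% with a stricter one. It was 26.3% with the replicate number as a block, 34.1% with a trend over exon length removed, 28.5% with both, and 11.6% to 60.9% with 1 library left out, as given below. Of all tested genes, 1.59% had a smaller p.

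Atp2a2 encodes SERCA2, whose SERCA2b form is the housekeeping pump of nearly all cells, and lies on chromosome 5 at 122453513 to 122502225. It had 155 CPM in control replicate 1, 223 CPM in control replicate 3, and 200, 228 and 221 CPM in verapamil replicates 1, 2 and 3. The groups overlapped, since control replicate 3 was above verapamil replicates 1 and 3. The log2 fold change was 0.19 (95% interval -0.21 to 0.60, adjusted p = 0.413). Leaving out control replicate 1 gave -0.04, and leaving out control replicate 3 gave 0.48 (adjusted p = 0.763 and 0.00152; 35.3% and 60.9% of all genes were called in those fits). With a single control left, such a fit holds no spread between controls. The counts are per gene, so the SERCA2a and SERCA2b transcripts cannot be told apart. The third pump gene, Atp2a1 of fast skeletal muscle, had 1 read in the controls and 1 with verapamil.

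The upstream region of Atp2a3 is shown because this gene had the strongest change of the set. It comprises the 250 bases before the RefSeq start site, chr11:72960919-72961168 on the plus strand of GRCm38.p6, given 5′ to 3′ with GC boxes (GGGCGG on either strand) in capitals.
Atp2a3: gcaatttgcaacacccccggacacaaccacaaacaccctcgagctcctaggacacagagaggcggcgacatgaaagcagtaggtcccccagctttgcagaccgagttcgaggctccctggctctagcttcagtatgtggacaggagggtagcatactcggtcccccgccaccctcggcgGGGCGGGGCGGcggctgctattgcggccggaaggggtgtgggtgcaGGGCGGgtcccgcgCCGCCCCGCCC
This window is 66.8% G or C, against a median of 52.4% over 32851 RefSeq promoter windows of the same length. It holds 5 GC boxes, some of which overlap by a shared base, all within 71 bases of the start. No match on either strand was found in it to the E-box CACGTG, the AP-1 motif TGANTCA, the NFAT core TTTCC or the PU.1 core GAGGAAG. Windows were given for 8 of the 10 members, and all 8 hold a GC box, as do 32.7% of all windows. These 8 windows are 57.2% to 78.4% G or C, each above the median of 52.4%. The share with a GC box was not compared at equal G or C content. The E-box occurs in the windows of Itpr3 (1 match) and Orai2 (2 matches), and in 6.02% of all windows. The NFAT core occurs in those of Orai2 and Orai3 and in 55.6% of all. The AP-1 motif and the PU.1 core occur in 0 of the 8 windows and in 6.75% and 10.6% of all. These are matches of letters and were not tested as sites.

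The 3 IP3 receptors are long genes whose products form the tetrameric release channels of the ER. Itpr3, the receptor type with the lowest affinity for IP3, lies on chromosome 17 at 27057002 to 27122223. It had 13.7 CPM in control replicate 1 and 20.8 CPM in control replicate 3, and 8.85, 8.94 and 8.43 CPM in verapamil replicates 1, 2 and 3. All verapamil libraries were below both controls, and they lay closer to each other than the controls did. The means were 17.2 ± 5.07 CPM (SD, n = 2) and 8.74 ± 0.272 CPM (SD, n = 3), from 792 and 524 reads. The log2 fold change was -0.98 (SE 0.192, edgeR adjusted p = 0.0145). Leaving out control replicate 1 gave -1.25, and leaving out control replicate 3 gave -0.64. The call was lost, with little change of the estimate (-0.96 to -1.0), when verapamil replicate 1, 2 or 3 was left out (adjusted p = 0.0652, 0.057 and 0.0655). Those fits called 11.8%, 12.4% and 11.6% of all genes. Every fit with 1 library left out, of either group, has fewer residual degrees of freedom, and the reason for the lost call was not tested. The annotation places 2.6% of the exon bases of Itpr3 in Itpr3os on the opposite strand or Mir7677, and reads of the 2 strands cannot be told apart because strand use is not stated.

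Itpr2, a receptor type of high IP3 affinity, lies on chromosome 6 at 146108299 to 146502258. Its level was 30.3 and 40.6 CPM in control replicates 1 and 3, and 33.5, 38.9 and 39.3 CPM with verapamil. The verapamil libraries lay between the controls. The fitted log2 change was 0.07 (95% interval -0.32 to 0.46, adjusted p = 0.764), with -0.12 and 0.30 when control replicate 1 or 3 was left out. Itpr1, best known as the main receptor of Purkinje neurons, is on chromosome 6 at 108213083 to 108551116. It had 9.17 and 15.9 CPM in the controls and 8.51, 13.1 and 11.4 CPM with verapamil. The verapamil libraries varied more for Itpr1 than for any other member, by 21% of their mean. The estimate for Itpr1 was -0.19 (log2) (95% interval -0.87 to 0.48, adjusted p = 0.629), with -0.53 and 0.26 when control replicate 1 or 3 was left out. The intervals of Itpr1 and Itpr2 therefore include changes of either sign, and the direction of each depended on which control was used.

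The sensors differed in sign, and neither passed the test with all libraries. Stim1, the main activator of store-operated entry, lies on chromosome 7 at 102261514 to 102437319. It had 36.2 and 48.1 CPM in control replicates 1 and 3 and 56.1, 58.8 and 52.6 CPM in verapamil replicates 1, 2 and 3. Each verapamil library was above both controls. On the log2 scale the difference was 0.41 (SE 0.148, 95% interval 0.05 to 0.77, adjusted p = 0.0938). Without control replicate 1 it was 0.22 (adjusted p = 0.102), and without control replicate 3 it was 0.63 (adjusted p = 0.000744). With the trend over exon length removed it was 0.24 (adjusted p = 0.0799).

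Stim2, which responds to smaller losses from the store and maintains basal calcium, lies on chromosome 5 at 53998523 to 54121057. The controls were nearly equal, at 46.4 and 46.7 CPM. Verapamil replicates 1, 2 and 3 had 38.8, 36.1 and 38.3 CPM, all below the controls. On the log2 scale the difference was -0.30 (SE 0.0993, 95% interval -0.54 to -0.06, adjusted p = 0.0701). It passed in 4 of the 15 alternatives: with upper quartile scaling (-0.42, adjusted p = 0.0289, 25.7% of all genes called), with the length trend removed (-0.35, adjusted p = 0.0204, 34.1% called), and without control replicate 1 or 3 (-0.30 in each, adjusted p = 0.029 and 0.0223). The estimate for Stim2 was the same with either control.

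Of the ORAI channels, Orai1 forms the pore of the calcium release-activated current and lies on chromosome 5 at 123015074 to 123030452. Its level was 48.5 CPM in control replicate 1 and 31.9 CPM in control replicate 3, and 29.7, 25.9 and 28.1 CPM with verapamil. The verapamil libraries were below both controls, but the controls differed from each other by more than control replicate 3 differed from the verapamil libraries. The estimated log2 change was -0.53 (SE 0.189, 95% interval -0.98 to -0.07, adjusted p = 0.0903). Leaving out control replicate 1 gave -0.19 (adjusted p = 0.196), and leaving out control replicate 3 gave -0.79 (adjusted p = 0.000257). With the length trend removed it was -0.35 (adjusted p = 0.0533).

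Orai2, a paralog that can dampen the current when it joins Orai1 in a channel, is on chromosome 5 at 136147456 to 136170697. It had 36.5 and 54.7 CPM in the controls and 42.4, 38.9 and 42.0 CPM with verapamil, all of them between the 2 controls. The estimate was -0.15 on the log2 scale (95% interval -0.59 to 0.29, adjusted p = 0.555), with -0.41 without control replicate 1 (adjusted p = 0.00805) and 0.17 without control replicate 3. Orai3, found in mammals only, lies on chromosome 7 at 127769815 to 127775150. It had 48.2 and 39.2 CPM in the controls and 47.4, 44.4 and 41.6 CPM with verapamil, again all within the range of the controls. Its log2 fold change was 0.02 (95% interval -0.29 to 0.34, adjusted p = 0.908), and -0.10 under upper quartile scaling.

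**Figure D2:**
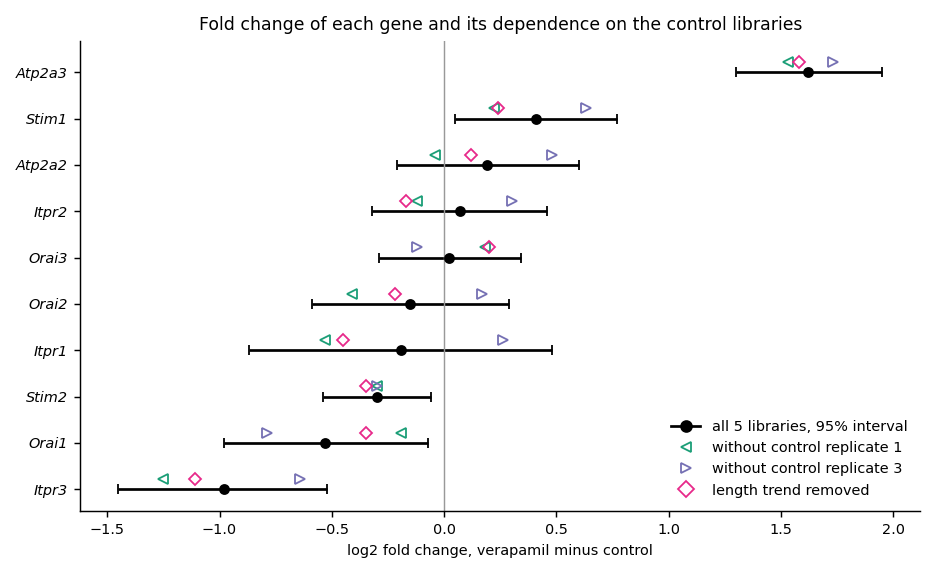
Log2 fold change of each gene (horizontal axis; black points with 95% intervals, all 5 libraries) beside the estimates without either control and with the trend over exon length removed (open markers). The estimates for Atp2a3 lie between 1.53 and 1.73, whereas those for Orai2, Orai3, Itpr1, Itpr2 and Atp2a2 fall on both sides of 0.

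The difference between the controls followed gene length among the members as it did over all genes. The longest gene, Itpr1 (18.32 kb of exons), was lower in control replicate 1 than in control replicate 3 by 0.80 on the log2 scale, and Itpr3 (9.02 kb) by 0.61. The shortest genes, Orai1 (2.3 kb) and Orai3 (2.14 kb), were higher there by 0.60 and 0.30. Stim2 (5.13 kb), at -0.01, and Atp2a3 (5.28 kb), at -0.20, lay between them. Spearman's rho of this difference with exon length was -0.79 over the 10 genes and -0.58 over 12394 genes with a length. These are descriptions across genes that share the same pair of libraries. RNA quality was not measured in the files, and its part in the difference between the controls was not tested.

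**Figure D3:**
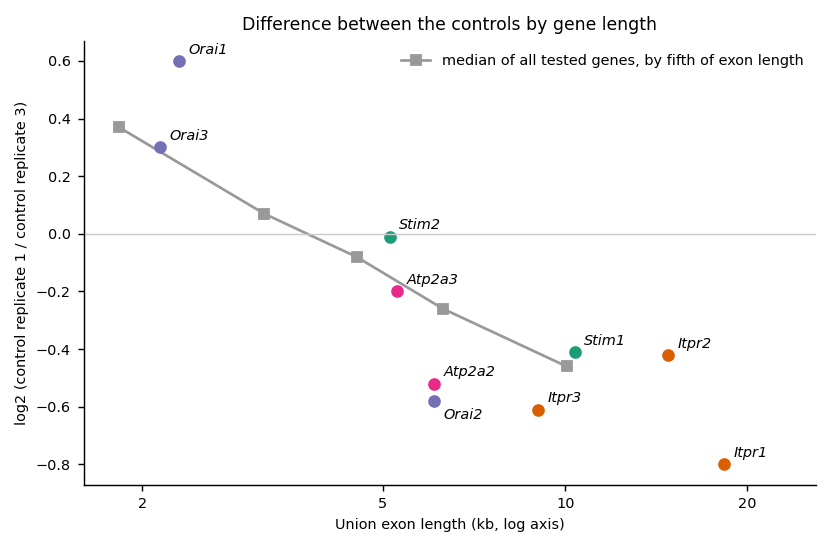
Log2 ratio of control replicate 1 to control replicate 3 for each gene (vertical axis) against its union exon length (horizontal log axis), with the medians over all tested genes in 5 groups by length (grey squares). Orai1 and Orai3 lie above 0, and the genes over 6 kb lie between -0.41 and -0.80.

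Levels of different genes were compared per kilobase of exon (RPKM, here the TMM-scaled CPM divided by the exon length). Atp2a2 had the highest level in every library, with 31.1 ± 7.85 RPKM in controls (SD, n = 2) and 35.6 ± 2.36 RPKM with verapamil (SD, n = 3). Orai3 came next (20.4 ± 2.97 and 20.8 ± 1.35 RPKM), then Orai1 (17.5 ± 5.09 and 12.2 ± 0.818 RPKM); in the controls these neighbours differed by less than their spread. Stim2 (9.07 ± 0.0382 and 7.35 ± 0.282 RPKM) and Orai2 (7.51 ± 2.12 and 6.77 ± 0.311 RPKM) followed, and their control means differed by less than the SD of Orai2. Stim1 had 4.06 ± 0.811 RPKM in controls and 5.39 ± 0.299 RPKM with verapamil, and Itpr2 had 2.40 ± 0.492 and 2.52 ± 0.219 RPKM. At the bottom of the control order, Itpr3 (1.91 ± 0.562 RPKM) and Atp2a3 (1.80 ± 0.175 RPKM) were not separable, above Itpr1 (0.685 ± 0.261 RPKM). With verapamil, Atp2a3 reached 5.55 ± 0.458 RPKM, within the spread of Stim1, while Itpr3 had 0.969 ± 0.0301 RPKM and Itpr1 0.600 ± 0.126 RPKM. The first 5 places of the order were the same in all 5 libraries.

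Shares of these levels within each family were then compared. Atp2a3 made up 6.16% and 4.99% of SERCA reads per kilobase in control replicates 1 and 3, and 15.3%, 11.9% and 13.4% in verapamil replicates 1, 2 and 3. Atp2a2 thus remained the main pump transcript in every library, with 84.6% to 95%. Among IP3 receptors, Itpr3 held 37.3% and 39% in the controls and 26.4%, 22.9% and 22.2% with verapamil. Itpr2 held 50.4% and 46.3%, then 61%, 60.7% and 63.1%, so it was the leading receptor transcript in all libraries. The share of Itpr1 overlapped between groups, at 12.3% to 14.7% and 12.5% to 16.5%.

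In the STIM pair, Stim2 had 72.2% and 66.3% of the reads per kilobase in the controls and 58.3%, 55.3% and 59.5% with verapamil. For ORAI, the share of Orai1 was 42.5% and 33.7% in the controls and 30.8%, 29.4% and 31.8% with verapamil, and that of Orai3 was 45.4% and 44.4%, then 52.6%, 53.9% and 50.3%. The groups did not overlap for any of these shares, except those of Itpr1, Orai2 and Atp2a1. For comparison, the levels of 56.7% of all tested genes did not overlap between groups, and no such background was computed for shares or ratios. Of 7 pairs of paralogs, the ratio did not overlap between groups for 4, namely Atp2a3 to Atp2a2, Itpr3 to Itpr2, Stim2 to Stim1 and Orai1 to Orai3. Each of these had p = 0.2 in an exact two-sided permutation test that doubles the smaller tail. With 2 against 3 libraries, this form of the test allows no smaller value, so none could pass before or after adjustment. The share of Orai1 differed by -7.49 percentage points; leaving out control replicate 1 gave -3.1, and leaving out control replicate 3 gave -11.9. Because union exon length includes every annotated exon, shares depend on the annotation as well as on the reads.

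**Figure D4:**
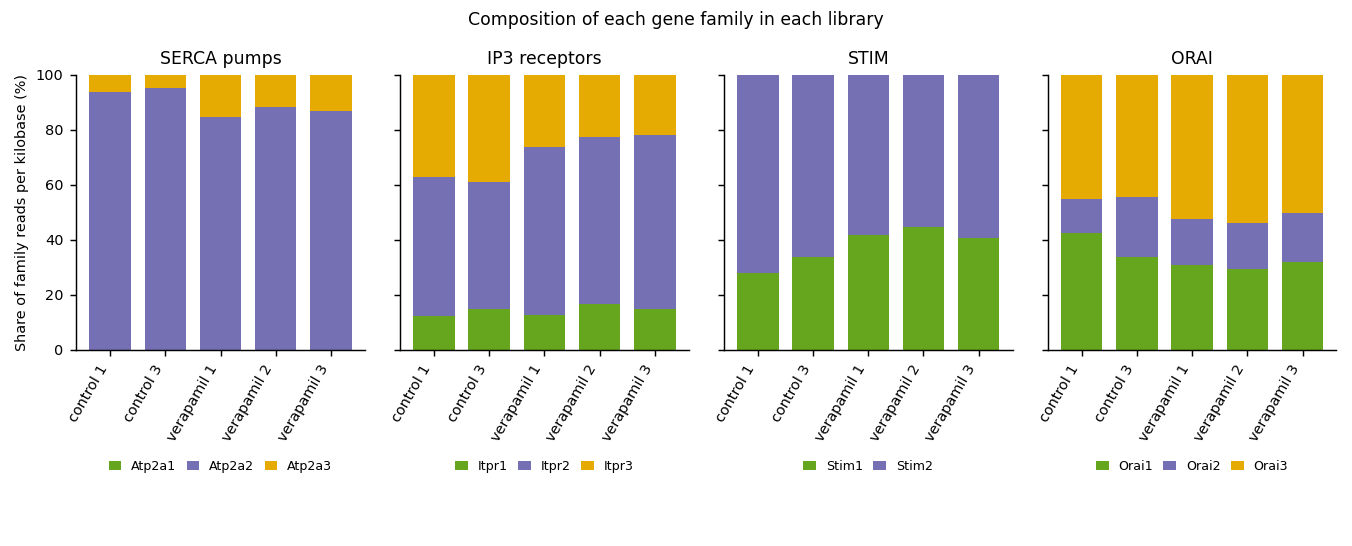
Share of each paralog in the reads per kilobase of its family (vertical axis, percent) in each library (bars). The Atp2a3 part is 4.99% to 6.16% in controls and 11.9% to 15.3% with verapamil, and the Itpr3 part is 37.3% to 39% and 22.2% to 26.4%.

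The annotated transcripts of the members shared few exact 50-base words with other genes. How reads were assigned to genes in the deposited counts was not examined. Of the 50-base words in the annotated transcripts of each member, at most 0.135% occurred in another gene, except for Atp2a2, with 3.31% shared with the predicted gene Gm30970. The only words that a member shared with a paralog were 4 words between Atp2a3 and Atp2a1.

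The 6 lists of genes around the store were examined with the same fit, and 25 of their 87 tested genes were called, 8 higher and 17 lower. That is close to the background of all tested genes (25.4% called, 9.99% higher and 15.4% lower), against which the counts per list and per marker list below are also to be read. The list named here ER luminal, of calcium-binding proteins and chaperones, held 7 genes that fell and 0 that rose of 16 tested in edgeR. Its median log2 fold change was -0.33 (1 gene rose at an unadjusted p under 0.05 and 0 in DESeq2). Where in the cell each of these proteins resides was not examined. Rcn1 and Rcn3, the reticulocalbins, fell by 1.24 and 1.93 on the log2 scale (SE 0.119 and 0.219, edgeR adjusted p = 0.00133 and 0.00226). Rcn3 had 41.4 and 25.6 CPM in control replicates 1 and 3 and 7.90 to 9.59 CPM with verapamil. Calr, the calcium-buffering chaperone calreticulin, went from 990 and 928 CPM to 739, 733 and 721 CPM (log2 -0.39, adjusted p = 0.0233), and the disulfide isomerase gene Pdia4 fell by 0.42 (adjusted p = 0.0267; removing the trend over exon length gave 0.129). Pdia6, Nucb2 and Pdia3 were the other genes called. Without verapamil replicate 1, 2 or 3, only Rcn1 and Rcn3 of the 7 genes were still called.

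Regulators of STIM, ORAI and SERCA went both ways, 2 of 16 higher and 3 lower (median -0.20). Stimate, which promotes STIM1 activation at junctions of ER and plasma membrane, had 17.2 and 15.2 CPM in controls and 9.89, 8.42 and 10.1 CPM with verapamil (log2 -0.77, adjusted p = 0.0102, and 0.0509 when verapamil replicate 2 was left out). Saraf, an ER protein that inactivates store-operated entry and that was chosen after its values were seen, had 215 and 199 CPM and then 278, 266 and 261 CPM (log2 0.38, adjusted p = 0.0325). It did not pass under upper quartile scaling (0.25, adjusted p = 0.137) or with verapamil replicate 1, 2 or 3 left out (adjusted p = 0.152, 0.148 and 0.138). Esyt1, a tether of ER to plasma membrane, rose by 0.67 (adjusted p = 0.0101; 0.0531, 0.0565 and 0.0584 without verapamil replicates 1, 2 and 3). The scaffold genes Cav1 and Jph2, for caveolin 1 and junctophilin 2, fell by 1.89 and 1.10 (adjusted p = 0.000584 and 0.00484).

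Of the regulators known from osteoclasts, Tmem64 and Tmem178 did not pass the test with all 5 libraries. Tmem64, a partner of SERCA2 in these cells, had 13.3 and 21.2 CPM in controls and 24.6, 25.8 and 26.5 CPM with verapamil (log2 0.57, adjusted p = 0.0858). It passed in DESeq2's Wald test (0.58, adjusted p = 0.0394) and with control replicate 3 left out (0.94, adjusted p = 0.000101), and gave 0.28 (adjusted p = 0.0549) with control replicate 1 left out. Tmem178, an ER protein that restrains store release, was near the detection limit, with 29 and 26 reads in all (log2 -0.55, adjusted p = 0.342). The ryanodine receptors, release channels of muscle and nerve, were scarcely present: Ryr1 had 47 and 36 reads (log2 -0.78, adjusted p = 0.189), Ryr2 had 0 and 2 reads and Ryr3 had 1 and 5.

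Among regulators of the IP3 receptors and of ER leak 3 of 23 were higher and 2 lower (median 0.07). Bok, a BCL2 relative that binds IP3 receptors, fell by 2.71 from 3.53 to 0.533 CPM, with 161 and 32 reads (edgeR adjusted p = 0.00087). Mrvi1, the IP3 receptor-associated cGMP kinase substrate, fell by 2.43 from 0.745 CPM, with 34 and 8 reads. Pacs2, which organises contacts of ER and mitochondria, rose by 0.80 (adjusted p = 0.0074) and Ahcyl2, a relative of the IP3 receptor inhibitor IRBIT, by 0.87 (adjusted p = 0.0095). The list of IP3 production and metabolism had 3 of 18 higher and 5 lower (median -0.13). Plcg2, the phospholipase C through which osteoclast costimulation acts, had 66.7 and 77.9 CPM in controls and 109, 113 and 115 CPM with verapamil (log2 0.64, adjusted p = 0.00928; 0.0556 and 0.062 without verapamil replicates 2 and 3). Plcl2, a catalytically inactive relative, rose by 0.49 (adjusted p = 0.0118; 0.0714, 0.0812 and 0.0855 when verapamil replicate 1, 2 or 3 was left out). Plcd1 and Plcd3, of the delta class, fell by 1.2 and 1.88 (adjusted p = 0.0057 and 0.00666). Of 12 genes of mitochondrial calcium uptake, 0 passed in edgeR (median -0.05; 1 at an unadjusted p under 0.05 and 0 in DESeq2).

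**Figure D5:**
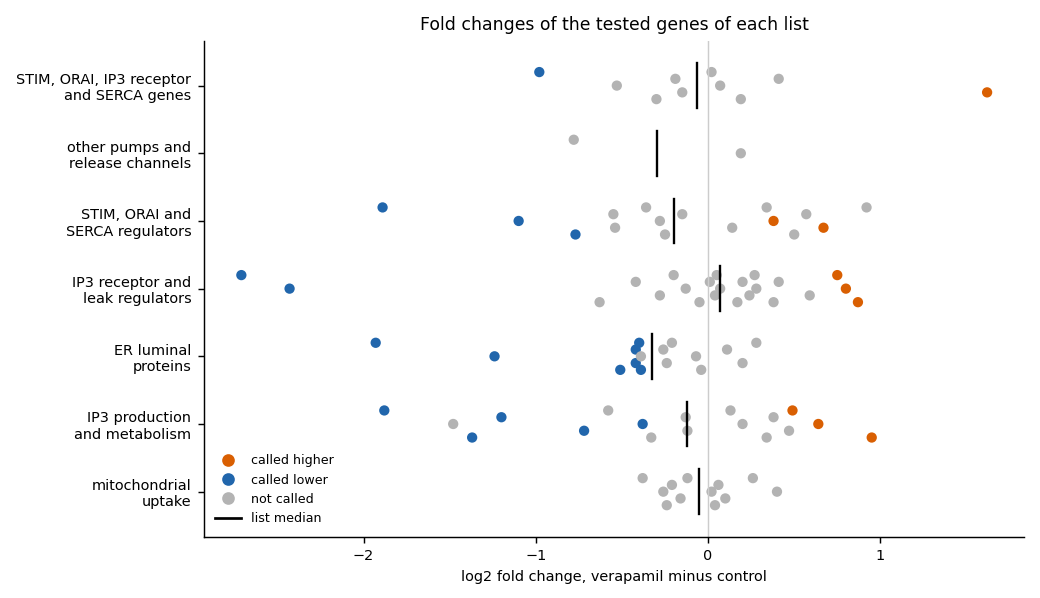
Log2 fold changes (horizontal axis) of the tested genes of the 10 store genes and 6 further lists (rows; vertical offsets only separate points), coloured by call, with the list median as a black bar. In the ER luminal list 7 points are called lower and 0 higher, and in the mitochondrial list 0 are called.

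Markers of cell types moved between the groups as well, and in bulk RNA fewer cells of a type and less RNA per cell cannot be told apart. Of 11 tested stromal and osteoblast markers 9 were lower and 0 higher with verapamil, and the summed level of the list was 1273 to 1469 CPM in controls and 520 to 542 CPM with verapamil. Of 12 macrophage markers 8 were lower and 2 higher (summed 30798 to 31133 and 42000 to 45744 CPM, most of it Lyz2). Of 11 osteoclast markers 8 were lower and 1 higher (summed 7091 to 7781 and 3356 to 3505 CPM). Markers of other blood lineages moved in different directions. The B and T cell list summed to 210 to 298 CPM in controls and 393 to 426 CPM with verapamil. Nearly all of it was Cd4, a T cell coreceptor. Cd4 rose (log2 0.69, edgeR adjusted p = 0.0267) and was the only called gene of 3 tested. Cd8a and Cd79b, the others tested, had negative estimates (log2 -0.36 and -1.66, edgeR adjusted p = 0.504 and 0.0768). Both had at most 1.17 CPM in any library. Platelet and megakaryocyte markers summed to 22.9 to 36.1 CPM in controls and to 1.28 to 1.57 CPM with verapamil, and all 3 tested fell. Most of the sum was Pf4, at 32.7 and 20.2 CPM in control replicates 1 and 3 and 0.775 to 0.789 CPM with verapamil. Ppbp and Itga2b, the others tested, had at most 1.88 and 0.719 CPM in any library. Gp5 and Gp9 had 1 and 0 reads in controls and 0 and 2 with verapamil. Neutrophil markers summed to 4.06 to 8.27 CPM and to 2.85 to 3.41 CPM, with 1 of 2 tested lower. Skeletal muscle markers summed to at most 2.65 CPM in any library. The part of any of these cell types in the levels of Atp2a3, Itpr3 and the ER luminal genes was not tested.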

How the data were processed

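The authors deposited a table of estimated counts of reads per gene, with decimals; its column totals differ and show no scaling. Per the submitters' processing notes the builds were GRCm38 and mm10, and which aligner, counter and annotation were used is not given in the sources used here. Counts were rounded, filtered with filterByExpr (minimum count 10, minimum total 15) and fitted in edgeR 4.0.16 (R 4.3.3) by quasi-likelihood with TMM scaling and the group as the only term, with 3 residual and 3.28 prior degrees of freedom. Standard errors restate that test (absolute log2 fold change over the square root of F), and 95% intervals use 6.28 degrees of freedom. The fit used the 5 libraries with a column in the table. The fit was tested on simulated counts with a common dispersion for all genes and both groups and no trend over exon length. Those settings differ from these data, so that test does not cover the spread between the controls or the length trend. Exon lengths came from GENCODE M21 (16137 of 16775 genes) and positions from RefSeq GRCm38.p6. Genes named beyond the members were up to 4 called genes per list by p and 6 fixed genes, unless said otherwise. Members, lists and tests were chosen with earlier results of these data known. Alternatives were upper quartile or DESeq2 1.42.0 scaling, DESeq2's Wald test, limma 3.58.1 (trend and voom), other filters, removal of a smooth trend over exon length, the replicate block, and leaving out each library.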

Additional observations from a re-analysis of the deposited data

How the results depend on the processing

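The rise of Atp2a3 was called in all 15 alternatives (adjusted p at most 0.011), and the fall of Itpr3 in 12. Leaving out single libraries gave 1460 to 7808 called genes over all genes (3200 with 5 libraries), 1 to 6 called store genes (2), 10 to 49 called genes of the 6 lists (25), and, for ER luminal genes called lower, 2 to 9 genes (7). Every fit with 1 library left out, of either group, has fewer residual degrees of freedom, and fits without a control also hold no spread between controls. The replicate numbers are shared by the groups, and the design text calls the repeats paired without saying what links them. Correlations of deviations from the group mean were 0.29 for replicate 1 and 0.02 for replicate 3. They stood beside 0.29 for control replicate 3 with verapamil replicate 2. With 2 controls, the deviations of the controls mirror each other, so these correlations can neither show nor exclude pairing. With the replicate block over the 4 libraries numbered 1 and 3, 3306 genes were called, Atp2a3 and Itpr3 kept their calls (1.68 and -0.97), and 2 ER luminal genes were called lower, or 3 with the length trend removed as well (Rcn1 and Rcn3, then Pdia6). Of the 25 list genes, the block lost 8: Calr (adjusted p = 0.15), Pdia3 (0.144), Pdia4 (0.0892), Pdia6 (0.146), Nucb2 (0.097), Saraf (0.168), Plcl2 (0.0609) and Inpp5a (0.198). Tmem64 passed with the block (0.6, adjusted p = 0.0309). With block and length trend together, Itpr1 passed (-0.53, adjusted p = 0.0344). Directions that turned all belonged to genes not called with 5 libraries. Orai3 was -0.10 with upper quartile scaling and -0.01 with the stricter filter, and from -0.12 to 0.18 with single libraries left out. Itpr2 was -0.04 with upper quartile scaling, -0.17 with the length trend removed, -0.16 with that and the block, and -0.12 to 0.30 with single libraries left out. The ranges with single libraries left out were -0.41 to 0.17 for Orai2, -0.53 to 0.26 for Itpr1 and -0.04 to 0.48 for Atp2a2. Without division by length, the share of Itpr3 among IP3 receptors differed by -10.9 percentage points (-14.3 with it), as the 3 genes differ in length. The difference in the share of Orai1 ranged from -11.9 to -3.1 points over single libraries left out. Upper quartile scaling moved the median of all genes to -0.13; the cause of other changes was not tested. Among the members, read numbers were lowest for Itpr1, Itpr3 and, in controls, Atp2a3, with 435 to 792 per group (1761 for Atp2a3 with verapamil).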

Other observations

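The 3 tested genes outside the set whose centred log2 CPM profile over the 5 libraries lay closest to that of Atp2a3 were Tnfrsf26, Socs6 and Hapln3, at root mean square distances of 0.0664, 0.0684 and 0.0759 on the log2 scale. Tnfrsf26, a gene of the TNF receptor family, had 18.4 and 21 CPM in controls and 61.3, 50.9 and 54.6 CPM with verapamil (log2 1.5, edgeR adjusted p = 0.00118). Socs6, a member of the family of cytokine signalling suppressors, had 80.1 and 94.2 CPM and then 293, 272 and 265 CPM (log2 1.67, adjusted p = 0.000643). Hapln3, a gene of the hyaluronan and proteoglycan link protein family, was low, at 1.17 and 1.32 CPM in controls and 3.74, 3.56 and 3.89 CPM with verapamil. The likeness rests on 5 libraries in 2 groups, and all 3 genes were themselves called higher with verapamil.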
